A study of Mus musculus with 2 samples.

Results

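Lrrc55, Rerg, Cldn8, Esr1, Tnfrsf11b and Matn2 are 6 of the 31053 genes counted in single cells from pancreatic islets of virgin and multiparous mice. They were grouped as genes tied to pregnancy that still stood higher in the multiparous β cells after delivery. The multipara to virgin difference in β cells is therefore what chose them, and that difference is given here as a description, with no test. All 6 had UMIs (unique molecular identifiers, each standing for 1 captured RNA molecule), and all 6 passed the minimum of 10 UMIs over both libraries in β cells. The islets came from wild-type C57BL/6J females. Multiparous mice were 9 weeks old at the start, went through 3 consecutive pregnancies and were taken 3 weeks after the last delivery, and the controls were virgin mice of matched age. Each group is 1 library of trypsin-dissociated islet cells, and the number of mice in a library is not given in the labels. With 1 library per group there is no replicate check, and a difference between the libraries cannot be told apart from a difference between 2 preparations.

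During pregnancy the islet adapts to rising insulin demand, and placental lactogen and prolactin act on β cells through the prolactin receptor and the JAK2 and STAT5 pathway. Estrogen acts on β cells as well, mainly through the receptor that Esr1 encodes. The 6 genes have different roles. Lrrc55 encodes a leucine-rich repeat protein that serves as an auxiliary subunit of the BK potassium channel. Rerg encodes a small Ras-like GTPase first described as an estrogen-regulated growth inhibitor. Cldn8 encodes claudin 8, a tight junction protein known from the kidney tubule. Tnfrsf11b encodes osteoprotegerin, a secreted decoy receptor that binds the RANK ligand. Matn2 encodes matrilin 2, an adaptor protein of the extracellular matrix.

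On GRCm38 with the GENCODE M21 annotation, the 6 protein-coding genes lie on 5 chromosomes. Lrrc55 (ENSMUSG00000075224) is on the minus strand at chr2:85162334-85197197, and the antisense gene Gm13713 overlaps its last exon on the other strand. Gm13713 held 2 UMIs in β cells of each library, against 0 and 103 for Lrrc55. Rerg (ENSMUSG00000030222) is on the minus strand at chr6:137054825-137170497. Cldn8 (ENSMUSG00000050520) is a gene of 1 exon on the minus strand at chr16:88560828-88563183. Esr1 (ENSMUSG00000019768) spans chr10:4611593-5005614 on the plus strand. Tnfrsf11b (ENSMUSG00000063727, minus strand, chr15:54250619-54278484) and Matn2 (ENSMUSG00000022324, plus strand, chr15:34306677-34436273) share a chromosome. The protein-coding gene 9430069I07Rik lies within Matn2 on the opposite strand, away from its last exon, and had 42 and 68 UMIs in β cells.

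Promoter sequences from RefSeq (GRCm38.p6) matched 2 of the 6 genes, Lrrc55 and Esr1. The 250 bases before the Lrrc55 start are shown because this gene had 0 UMIs in the virgin β cells, and they lie on the minus strand at chr2:85198751-85199000, where GENCODE M21 has no exon.

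Lrrc55 promoter: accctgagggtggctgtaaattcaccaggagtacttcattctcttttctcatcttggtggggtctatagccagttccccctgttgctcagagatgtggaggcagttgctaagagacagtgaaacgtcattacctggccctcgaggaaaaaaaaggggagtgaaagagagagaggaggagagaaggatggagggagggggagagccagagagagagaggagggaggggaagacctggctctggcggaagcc

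Esr1, second start site: ctggagtttcTTCTAGGAAtgctgattct

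The capitals in the Esr1 stretch, on the plus strand at chr10:4709960-4709988, mark a match to TTCNNNGAA, the letters that STAT factors bind. The match begins at position -188 from the downstream of the 2 RefSeq start sites of Esr1. The Lrrc55 window holds no match to these letters. On either strand, 7.02% of all 32851 promoter windows of the same length hold them, and 0.0639% hold the full estrogen response element (GGTCA, 3 bases of any kind, TGACC), which was in none of the Lrrc55 and Esr1 windows. These letters describe the windows and say nothing of binding.

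Cells were sorted into types by the share of their UMIs that came from hormone genes, or by markers. The β cell gate asked for at least 20% insulin UMIs and under 1% each from Gcg, Sst and Ppy, and it held 1690 virgin and 1463 multiparous cells with a median of 30463 and 33087 UMIs. Their markers fitted the label: Mafa stood at 331 and 340 CPM (UMIs of the gene scaled to 1000000 UMIs of the cell type) and Ucn3 at 240 and 257 CPM. Among markers of other cells, Cd79a, a B cell gene, stood at 32.5 CPM in the virgin and 10.9 CPM in the multiparous β cells. In α cells it stood at 1.91 and 0.830 CPM. Pecam1 and Prss2 were under 0.5 CPM in the β cells of both libraries. Where such RNA came from, and its part in the results, was not tested. Cells with 3 or more detected markers of another type made up 1.60% and 1.64% of the β cells. The 2 libraries shared 7 cell barcodes. Intervals below are 95% intervals for counting error only.

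Lrrc55 was not seen in the virgin β cells. It had 0 UMIs in the virgin library, which by a floor of 3 counts allows a level of up to 0.0603 CPM, and 103 UMIs in the multiparous library (2.26 CPM, 1.85 to 2.75). With the virgin count set to that floor the level was 37.6-fold higher. The exact interval of the ratio, taken from the counts of 0 and 103, had a lower limit of 30.0-fold. Rerg had 4 and 94 UMIs (0.0804 and 2.07 CPM), a log2 ratio of 4.68 (3.28 to 6.59). Cldn8 had 8 and 125 UMIs (0.161 and 2.75 CPM), a log2 ratio of 4.10 (3.07 to 5.34). Esr1 had 3 and 64 UMIs (0.0603 and 1.41 CPM), a log2 ratio of 4.54 (2.93 to 6.86). These 4 genes were close to absent from the virgin β cells and low, though plainly counted, in the multiparous ones.

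Tnfrsf11b and Matn2 were already counted in the virgin β cells and stood higher in the multiparous ones. Tnfrsf11b had 122 and 291 UMIs (2.45 and 6.40 CPM), a log2 ratio of 1.38 (1.07 to 1.70). Matn2 had 655 and 1593 UMIs (13.2 and 35.0 CPM), a log2 ratio of 1.41 (1.28 to 1.55). All 6 genes were over 2-fold higher in the multiparous β cells, where 1.95% of the 13921 genes tested were. Since this contrast chose the genes, nothing is read from that count. With the cells thinned to 1 depth Tnfrsf11b was at a log2 ratio of 0.96, under 2-fold.

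The same difference showed in how many cells held a UMI. Lrrc55 was seen in 0 of 1690 virgin β cells, which by the floor of 3 counts allows a share of up to 0.178%, and in 75 of 1463 multiparous ones (5.13%, 4.05 to 6.38). Rerg was seen in 4 and 86 cells, Cldn8 in 8 and 107, and Esr1 in 3 and 59. Tnfrsf11b was seen in 113 virgin β cells (6.69%, 5.54 to 7.98) and 241 multiparous ones (16.5%, 14.6 to 18.5). Matn2 went from 24.7% (22.6 to 26.8) to 51.1% (48.5 to 53.7). In no gene but Matn2 did a majority of the multiparous β cells hold a UMI, and a cell without a UMI at this depth may still have held the RNA.

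To set the libraries at 1 depth, each β cell with at least 7000 UMIs was thinned to 7000, which left out 142 virgin and 143 multiparous cells. Matn2 was then seen in 125 of 1548 virgin cells (8.07%) and 259 of 1320 multiparous cells (19.6%). Tnfrsf11b was seen in 34 and 58 thinned cells, or 2.20% (1.53 to 3.06) and 4.39% (3.35 to 5.64). Lrrc55 was seen in 0 and 19 thinned cells, Rerg in 1 and 14, Cldn8 in 3 and 28, and Esr1 in 0 and 14. The multiparous share was above the virgin share for each of the 6 genes at equal depth, and for these last 4 genes at most 30 UMIs were left, nearly all as 1 UMI in a cell.

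**Figure D1:**
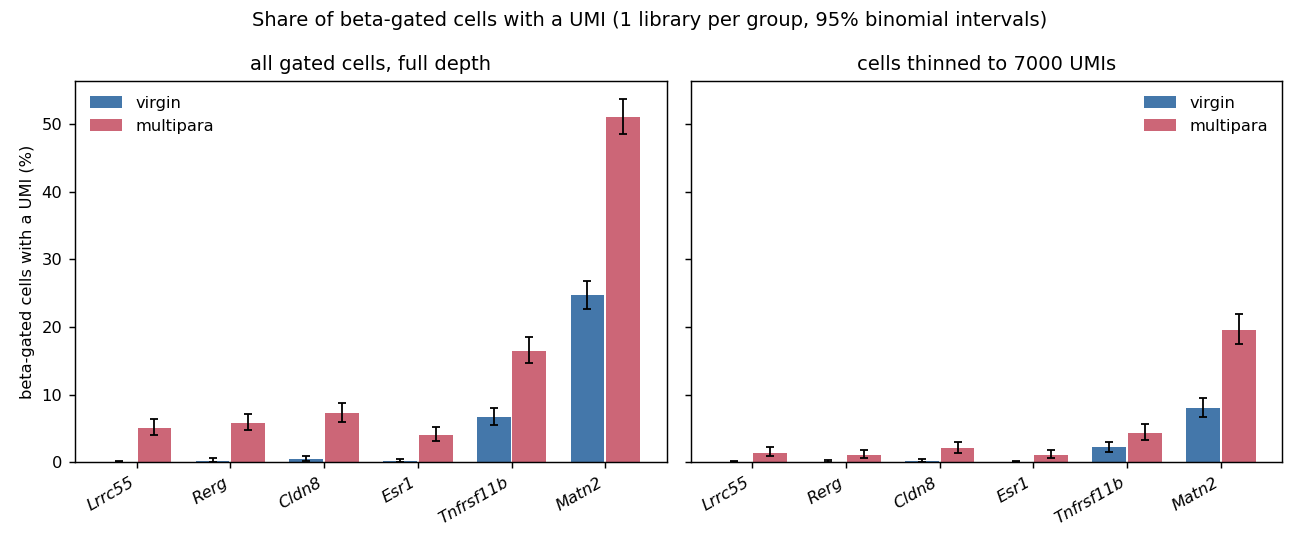
Share of beta-gated cells holding a UMI of each gene, in percent, for the virgin (blue) and multiparous (red) library at full depth (left) and after thinning to 7000 UMIs (right). Bars are shares of cells in 1 library and lines are 95% binomial intervals; the multiparous bar is higher for all 6 genes in both panels.

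Most cells that held a gene held 1 UMI of it, except for Matn2, where 368 of 747 multiparous holders did. Of the 75 multiparous β cells with Lrrc55, 56 had 1 UMI, 14 had 2 and 5 had 3 or more, with a maximum of 6. If its UMIs were spread over the β cells in proportion to depth, 6.75% of cells would hold one, against the 5.13% seen. Rerg reached at most 2 UMIs in a cell, and its 5.88% of cells compared with 6.18% under an even spread. Matn2 was uneven as well: 203 cells had 3 or more UMIs, 65 had 5 or more, the maximum was 11, and 51.1% of cells held it where an even spread gave 61.7%. The virgin Matn2 counts were uneven too, with 24.7% of cells holding it against 31.2% under an even spread.

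Holding a UMI went with depth, as it must for sparse counts. The multiparous β cells with Lrrc55 had a median of 40745 UMIs, and those without had 32558. The levels in CPM do not depend on depth in this way, yet Lrrc55 went from 1.60 CPM (0.437 to 4.11) in the shallowest of 5 equal groups of cells by depth to 3.23 CPM (2.37 to 4.31) in the deepest, by way of 1.03 CPM in the middle group. Tnfrsf11b stood at 8.82 CPM (5.53 to 13.4) in the shallowest and 5.13 CPM (4.02 to 6.45) in the deepest group. Matn2 ran from 24.9 to 40.8 CPM over the 5 groups with no steady order. Pairs of genes and the genes of holders are therefore compared at matched depth below, while the grouping by Matn2 UMIs and the correlations are not matched.

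The gated cell types differed in which of the 6 genes they held. In the multiparous library nearly all Lrrc55 and Cldn8 UMIs lay in β cells. β cells held 103 of the 110 multiparous Lrrc55 UMIs in all cells kept (93.6%, 87.3 to 97.4) and 125 of the 126 Cldn8 UMIs (99.2%, with a lower limit of 95.7%), while they held 66.0% of all UMIs. Among 628 multiparous α cells, which make glucagon, Lrrc55 had 2 UMIs and Cldn8 had 0. Among 236 multiparous δ cells, which make somatostatin, both had 0, and in the 249 virgin δ cells both had 0 as well. At the β cell level the multiparous δ cells would have held 5.39 Lrrc55 and 6.54 Cldn8 UMIs. Their counts of 0 therefore allow up to 68.5% and 56.4% of that level. Virgin δ cells would have held 0.422 Cldn8 UMIs at the virgin β cell level, so their counts of 0 say little. Outside β cells the virgin library held 3 Cldn8 UMIs, all in 3 of the 4 cells that carried ductal markers such as Krt19. The ductal cells thus held 27.3% of the virgin Cldn8 UMIs and 0.0523% of all virgin UMIs. No multiparous cell was gated as ductal, so the multiparous share could not show this type. The 1 virgin Lrrc55 UMI was in an endothelial cell. In multiparous endothelial cells and macrophages 1 Lrrc55 UMI each came to 28.2% (0.714 to 157) and 66.5% (1.68 to 371) of the β cell level.

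Free RNA in droplet data gives every cell type a low level of the most abundant transcripts. In the multiparous α cells the β cell genes Ins2, Ucn3, Mafa and G6pc2 stood at 1.52%, 1.80%, 2.39% and 2.95% of their β cell level. The 2 Lrrc55 UMIs in α cells came to 8.15% (0.987 to 29.4) of the β cell level, an interval that covers those values. The 4 Tnfrsf11b UMIs came to 5.77% (1.57 to 14.8) of it, an interval that covers the values of Ucn3, Mafa and G6pc2 but lies just above that of Ins2. Matn2 had 20 UMIs in the multiparous α cells, 5.27% (3.22 to 8.14) of its β cell level, so its lower limit lay above the share of each of these 4 β cell genes, though within the interval of G6pc2 (2.47 to 3.50). Other β cell markers, in multiparous α and β cells, stood at 3.97 and 212 CPM (Slc2a2), 1154 and 43792 (Iapp), 3.32 and 91.2 (Pdx1), 15.8 and 218 (Nkx6-1) and 457 and 362 (Slc30a8). Their part of the β cell level thus varied widely, and the part of free RNA in the Matn2 counts of α cells was not tested. In virgin α cells Matn2 stood at 5.14% (2.56 to 9.19) of its β cell level, against 0.921% for Ins2, 1.13% for Ucn3, 1.45% for Mafa and 2.44% (2.10 to 2.82) for G6pc2. Its α cell level was 0.676 CPM in the virgin and 1.85 CPM in the multiparous library, a log2 ratio of 1.45 (0.32 to 2.66). In the 386 virgin and 296 multiparous cells with more than 1 hormone, Matn2 stood at 6.55 and 12.5 CPM (log2 ratio 0.93, 0.37 to 1.49).

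Rerg and Esr1 had most of their virgin UMIs outside β cells, and most of their multiparous UMIs inside them. Of 25 virgin Rerg UMIs, 4 were in β cells, 7 in cells with more than 1 hormone, and 5 in the 8 cells with Schwann cell markers. Of the 106 multiparous Rerg UMIs, 94 were in β cells. Esr1 had 3 of 17 virgin UMIs in β cells, 6 in the 59 fibroblasts (13.7 CPM, 5.02 to 29.8) and 3 in the 64 pericytes. In the multiparous library, 64 of 76 Esr1 UMIs were in β cells (84.2%, 74.0 to 91.6). Fibroblasts could not be compared across libraries for Esr1, since the 6 multiparous fibroblasts had 0 UMIs of it and a floor of 128 CPM.

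Tnfrsf11b was held by more types. In δ cells it stood at 11.4 CPM (7.72 to 16.3) in the virgin and 14.7 CPM (10.2 to 20.5) in the multiparous library. In endothelial cells it stood at 11.4 CPM (6.50 to 18.5) and 10.2 CPM (5.84 to 16.6). Both levels lay above those of the β cells, 2.45 and 6.40 CPM, although the lower endothelial limit in the multiparous library lay below its β cell level. The log2 ratio between the libraries was 0.36 (-0.38 to 1.12) in δ cells and -0.15 (-1.25 to 0.94) in endothelial cells, and both intervals include 0. Whether the change in β cells differs from that in δ cells was not tested, as there are no replicates. α cells had 3 and 4 Tnfrsf11b UMIs, and the PP cells, which make pancreatic polypeptide, had 0 in both libraries.

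Matn2 stood far above its β cell level in fibroblasts, with 106 UMIs in the virgin library (242 CPM, 198 to 292) and 7 UMIs in the 6 multiparous fibroblasts (300 CPM, 121 to 618). The 8 virgin cells with Schwann cell markers had 10 Matn2 UMIs, in 2 of them (282 CPM, 135 to 519). Virgin pericytes had 36.2 CPM (15.6 to 71.2), and the multiparous ones 10.6 CPM (1.28 to 38.1). δ cells had 4.58 CPM in the virgin and 3.36 CPM in the multiparous library, a log2 ratio of -0.45 (-1.94 to 0.97). The fibroblast marker Dcn had 21 and 1 UMIs in the β cells (0.422 and 0.022 CPM), and the part of fibroblast RNA in their Matn2 counts was not tested.

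**Figure D2:**
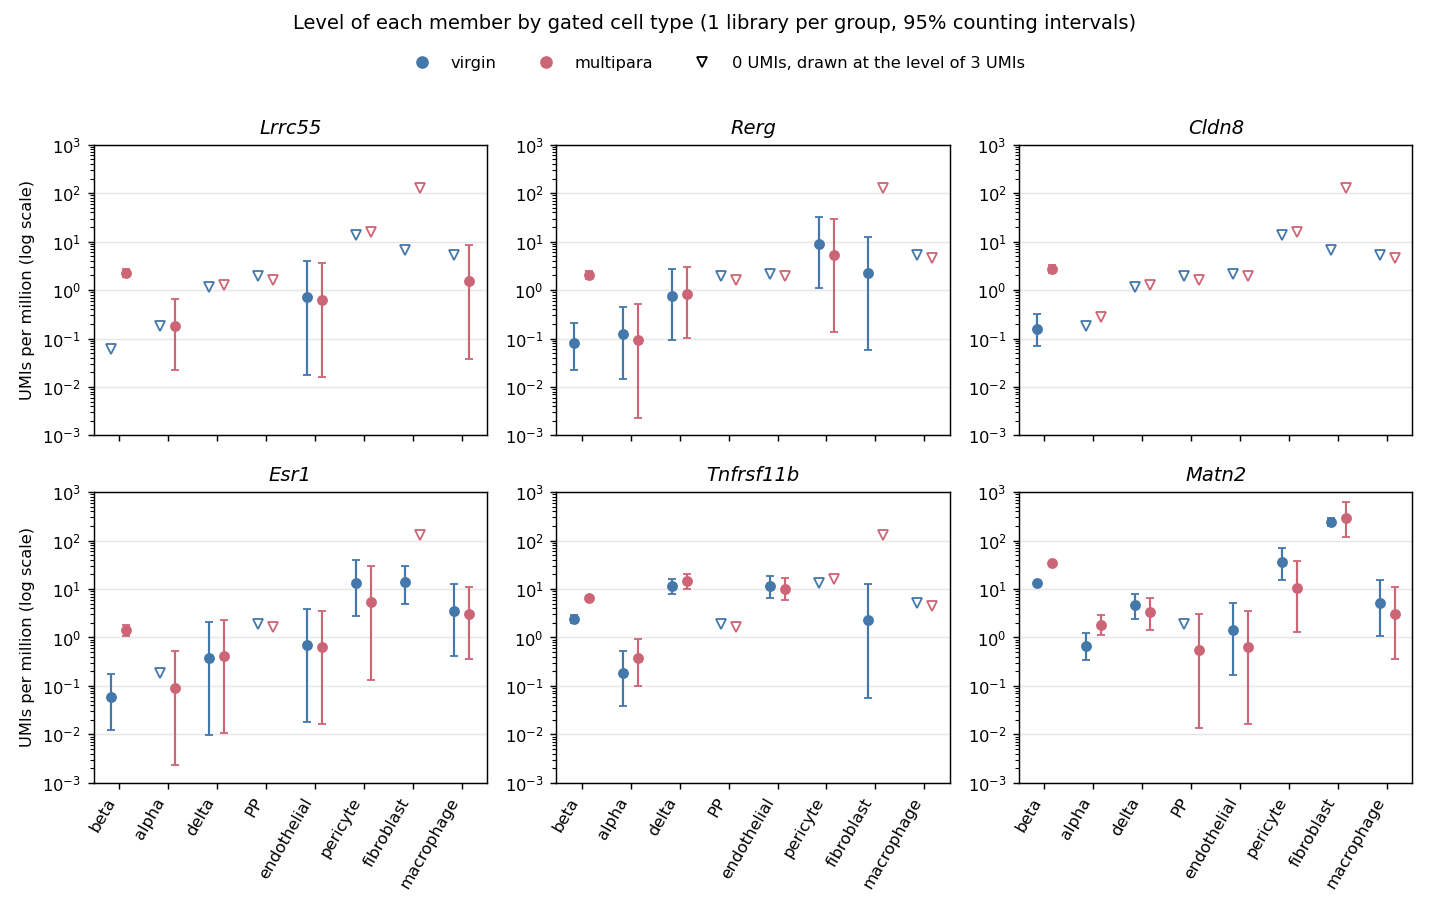
Level of each gene in CPM (log axis) in 8 gated cell types of the virgin (blue) and multiparous (red) library. Points are sums over the cells of 1 library with 95% counting intervals, and open triangles are types with 0 UMIs, drawn at the level that 3 UMIs would give. The β cell points of all 6 genes lie higher in the multiparous library, and Tnfrsf11b and Matn2 are also counted in δ cells, endothelial cells or fibroblasts.

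The genes with a level across cell types most like each of the 6 were sought over 20 points (a gated type with at least 30 cells in 1 library) by Pearson correlation of log2(CPM + 1), among 14933 genes. The points of 1 library share its depth and free RNA, so these values are descriptions. Cldn8 was most like Kcnj5 (r = 0.98), a potassium channel gene, Tph1 (0.98), the serotonin-synthesis enzyme of pregnant islets, and Lrrc7 (0.97). Lrrc55 was most like Gm10419 (0.85), then Lrrc7 (0.69), Fbxw24 (0.69), Tph1 (0.69) and Cldn8 (0.68). Tnfrsf11b was most like Sema3c (0.95), Esr1 like Dkk3 (0.95), Rerg like Gm6277 (0.93) and Matn2 like the collagen gene Col6a3 (0.85). Among these points Esr1 had 6 UMIs in virgin fibroblasts and 3 in virgin pericytes, and Rerg had 2 and 1 UMIs in virgin and multiparous pericytes. The r values of Esr1 and Rerg thus rest in part on few UMIs. Kcnj5 had 4 and 35 UMIs in virgin and multiparous β cells, Tph1 had 2 and 35, Lrrc7 had 0 and 29, and all 3 had 0 UMIs in α and δ cells of both libraries. Cldn8 likewise had 8 and 125 UMIs in these β cells and 0 in α and δ cells. Its r values therefore rest mostly on the point of the multiparous β cells, which is part of the contrast that chose it.

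Many multiparous β cells held more than 1 of the 6 genes. In the multiparous library 538 cells held none, 610 held 1, 248 held 2, 61 held 3, 4 held 4 and 2 held 5. In the virgin library 1183 cells held none, 469 held 1 and 38 held 2. The share holding 2 or more was thus 21.5% (19.4 to 23.7) against 2.25% (1.60 to 3.07). Matn2 accounted for much of this, and without it 91 multiparous cells (6.22%, 5.04 to 7.58) and 0 of the 1690 virgin cells held 2 or more. At least 1 of the 5 genes other than Matn2 was seen in 31.9% (29.5 to 34.4) of the multiparous and 7.57% (6.36 to 8.94) of the virgin β cells. Each gene alone was in a larger share of the multiparous cells, the contrast that chose the genes. Larger shares alone give more cells with 2 or more, so nothing on shared cells is read from these counts.

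Whether the genes shared cells beyond what depth gives was examined by counting cells with both of a pair against the number expected if the genes fell independently among cells of the same depth group. Of 15 pairs in the multiparous β cells, 12 were above and 3 below the expected number, and 0 of the 15 intervals excluded a ratio of 1. Lrrc55 and Esr1 were together in 9 cells with 4.25 expected (ratio 2.12, 0.968 to 4.02). Rerg and Cldn8 were together in 12 cells with 7.79 expected (1.54, 0.796 to 2.69), and Lrrc55 and Cldn8 in 11 with 7.30 expected (1.51, 0.752 to 2.69). Esr1 and Tnfrsf11b were together in 5 cells with 11.1 expected (0.449, 0.146 to 1.05). Tnfrsf11b and Matn2, the best counted pair, were together in 136 cells with 136 expected (interval of the ratio 0.841 to 1.19). The pairs share the genes and the cells, and for the rarer genes departures of the size seen were not detectable at this depth.

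**Figure D3:**
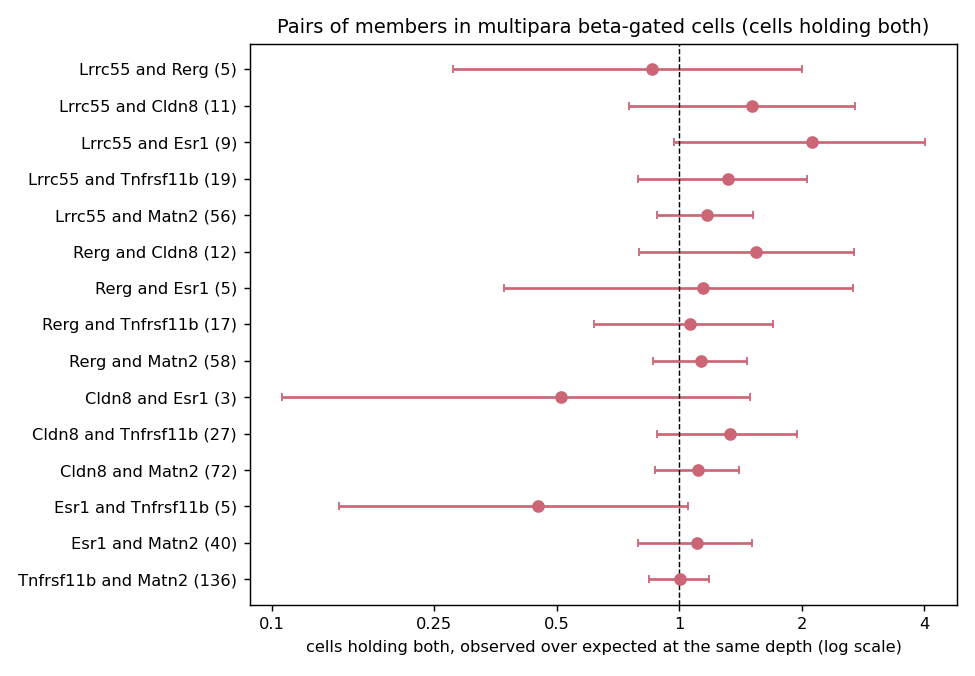
Cells holding both genes of a pair in the multiparous β cells, as observed over expected at the same depth (log axis). Points are ratios, lines are 95% counting intervals and the number of cells holding both is in parentheses; the intervals of all 15 pairs include 1, the dashed line.

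Grouping the multiparous β cells by their Matn2 UMIs used more of its counts. Lrrc55 stood at 1.24 CPM (0.788 to 1.87) in the 716 cells with 0 Matn2 UMIs, 2.03 CPM (1.31 to 3.00) in the 368 with 1, 2.76 CPM (1.64 to 4.36) in the 176 with 2, 3.90 CPM (2.41 to 5.96) in the 138 with 3 or 4 and 5.78 CPM (3.30 to 9.39) in the 65 with 5 or more. The level thus went up at every step, and the intervals of the outer groups did not overlap. Cldn8 did not go up at every step, but stood at 2.11 CPM (1.5 to 2.88) in the cells with 0 and 5.42 CPM (3.03 to 8.94) in those with 5 or more. Rerg stood at 1.57 CPM (1.05 to 2.25) and 3.61 CPM (1.73 to 6.64) in the same groups, whose intervals overlap. Esr1 stood at 1.19 and 1.44 CPM and Tnfrsf11b at 6.65 and 7.22 CPM, and their intervals overlapped widely. The median depth went from 29062 UMIs in the cells without Matn2 to 42137 in those with 5 or more, and the part of depth in this order was not tested.

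**Figure D4:**
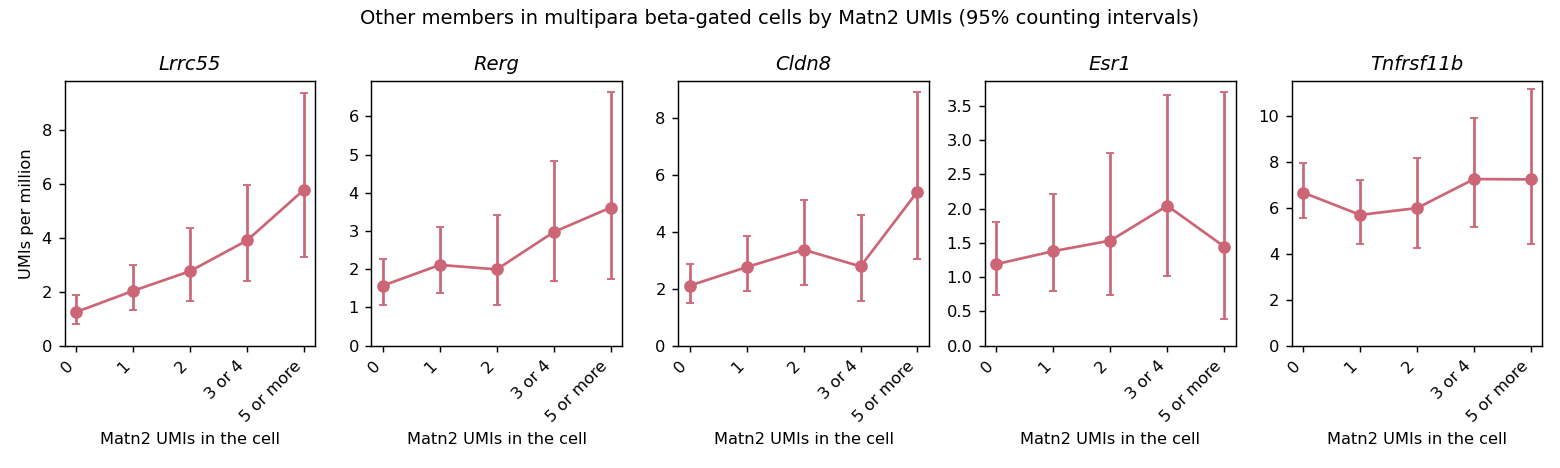
Level of the 5 other genes, in CPM, in multiparous β cells grouped by their number of Matn2 UMIs. Points are sums over cells with 95% counting intervals; Lrrc55 goes from 1.24 to 5.78 CPM, while Tnfrsf11b stays between 5.68 and 7.24 CPM.

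The wider pathways around the 6 genes were described in β cells from gene lists. These lists were chosen with earlier results of these data known, so their counts and medians are descriptions only. Over all genes tested, 1.95% were over 2-fold higher and 5.09% over 2-fold lower, with a median log2 ratio of -0.09. Among genes known to respond to gestation in islets, 14 of 16 had enough UMIs, 4 were over 2-fold higher, 3 over 2-fold lower, and the median was 0.28. The 4 higher were Tph1, from 2 to 35 UMIs (log2 ratio 4.26, 2.30 to 7.36), the interferon-inducible GTPase gene Gbp8, from 8 to 139 (4.25, 3.23 to 5.49), the oxytocin receptor gene Oxtr, from 51 to 118 (1.34, 0.85 to 1.84), and Tph2, from 35 to 68 (1.09, 0.48 to 1.72). The 3 lower were Bcl6, Foxm1 and Birc5, with 47 and 18, 9 and 4, and 37 and 8 UMIs, and the interval of Foxm1 includes 0 (-3.19 to 0.80). Lars2, a mitochondrial leucyl-tRNA synthetase gene of this list, had 1664 and 1409 UMIs (-0.11, -0.21 to -0.01). Prlr, the prolactin receptor, stood at 428 and 554 CPM (log2 ratio 0.37, 0.35 to 0.40).

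Of the 12 genes of prolactin and growth hormone signalling, 0 were past 2-fold in either direction and the median was -0.12. Cish, a feedback inhibitor induced by STAT5, stood at 10.0 and 16.0 CPM (log2 ratio 0.67, 0.51 to 0.84), and Socs2 had a log2 ratio of 0.20 (0.11 to 0.29). The related inhibitors went the other way, with Socs1 at -0.85 (-1.53 to -0.19) and Socs3 at -0.22 (-0.30 to -0.14), as did the growth hormone receptor gene Ghr at -0.29 (-0.36 to -0.22). Of 13 estrogen receptors and cofactors other than Esr1, 8 had enough UMIs, 0 were past 2-fold and the median was -0.15. Esr2, which encodes the other nuclear estrogen receptor, and Greb1, a classical estrogen target, had 0 UMIs in both libraries, and the progesterone receptor gene Pgr had 2 and 0.

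For the BK channel, the pore gene Kcnma1 had 908 and 727 UMIs (log2 ratio -0.19, -0.33 to -0.05) and the subunit gene Kcnmb2 had 3253 and 2434 (-0.29, -0.37 to -0.21). Of the leucine-rich subunits related to Lrrc55, Lrrc38 had 10 and 7 UMIs, and Lrrc26 and Lrrc52 had 0. Of 24 genes of tight junctions, 15 had enough UMIs, 1 was over 2-fold higher and the median was -0.02. That gene was Cldn1, with 11 and 21 UMIs and an interval that includes 0 (log2 ratio 1.06, -0.06 to 2.26). Cldn7, at 59.4 and 67.2 CPM, and Cldn4, at 29.4 and 21.9 CPM, had more virgin UMIs than the other claudins listed, and in the multiparous library Cldn3, at 24.0 and 23.6 CPM, had more than Cldn4. Of 20 Ras-like GTPase genes, 16 had enough UMIs, 0 were over 2-fold higher and the median was -0.16, and the 2 over 2-fold lower were Rasl11a, with 14 and 2 UMIs, and Rrad, with 14 and 4. The relatives of Matn2 (Matn1, Matn3 and Matn4) had at most 1 UMI in β cells of either library.

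The ligand and the signalling receptor of the osteoprotegerin system were unevenly held. Tnfsf11, the RANK ligand, had 0 UMIs in β cells of both libraries and 26 in the 59 virgin fibroblasts (59.3 CPM, 38.7 to 86.8). Tnfrsf11a, the gene of its receptor RANK, had 139 UMIs in virgin β cells (2.79 CPM) and 203 in multiparous ones (4.46 CPM), a log2 ratio of 0.68 (0.36 to 0.998). In endothelial cells Tnfrsf11a stood at 14.9 and 14.1 CPM, and in multiparous α and δ cells it had 0 UMIs. Of the 5 genes of this list, 4 had enough UMIs and 1, Tnfrsf10b with 9 and 2 UMIs, was over 2-fold lower with an interval that includes 0 (-5.29 to 0.23).

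The 17 genes of β cell identity had 0 members past 2-fold and a median of 0.01. They ran from -0.49 (-0.52 to -0.47) for Slc30a8 and -0.44 for Slc2a2 to 0.25 for Glp1r and 0.26 (0.21 to 0.31) for Syt4. The 9 stress genes that the study named from these libraries had a median of 0.50, with Nupr1 at 91.4 and 252 CPM, and this list is no independent evidence of its direction. Of 15 genes of cholesterol synthesis, 1 was over 2-fold higher, Hmgcs1 (44.3 and 90.1 CPM), and the median was 0.29. Of 16 cell cycle genes, 9 were over 2-fold lower, with Mki67 at 30 and 6 UMIs.

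Within the multiparous library, other genes were compared between β cells that held one of the 6 genes and those that did not, at matched depth. Mitochondrial share was not matched, and its median was lower in the holders of each gene. It was 3.33% with and 4.50% without Matn2, 3.00% and 3.80% for Lrrc55, and 3.65% and 3.76% for Esr1. The part of this difference in the values below was not tested. The expected count is the one the holders would have at the level of the other cells in the same depth group. Cells with 2 or more of the 6 (315) were set against cells with none (538). Over 10084 genes with at least 20 expected UMIs, the median log2 of observed over expected was -0.06. Of the insulin genes, Ins2 stood at 0.01 and Ins1 at 0.14, and the identity list had a median of 0.03. The gestation list had a median of 0.00 and the stress list 0.01, both within 0.1 of the median of all genes, and the sign of these small values changed under other settings. Within the stress list, Nupr1 was lower in these cells, with 2475 UMIs and 3786 expected (-0.61, -0.67 to -0.56). The genes differed in this: it stood at -0.64 in cells with Cldn8, -0.45 with Matn2 and -0.35 with Lrrc55. In cells with Tnfrsf11b, Rerg and Esr1 it stood at -0.09, -0.04 and 0.17. Counted by cells rather than UMIs, its ratio of observed to expected ran from 0.894 (Tnfrsf11b) to 1.15 (Esr1), and the interval for each gene included 1.

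Some genes did go with them. Fmo1, a flavin monooxygenase gene, had 1523 UMIs where 721 were expected (log2 1.08, 1.01 to 1.15), and the long noncoding RNA gene Gm27168, on the minus strand at chr8:86920477-86921147, had 548 where 260 were expected (1.07, 0.95 to 1.19). Both differed between the libraries as well: Fmo1 stood at 22.2 and 90.7 CPM and Gm27168 at 4.60 and 27.9 CPM in β cells. The complement gene C3 had 108 with 50.3 expected (1.10, 0.82 to 1.38). Of the 10 genes with the highest ratio, 4 were over 2-fold higher in the multiparous library, where 1.95% of the 13921 genes tested were. The genes that define these cells were chosen by that contrast, so nothing is read from this count. The crystallin gene Crybb3 had 79 UMIs with 32.4 expected, but 1 cell held 40 of its UMIs, and without that cell it stood at 0.27 (-0.22 to 0.72). At the low end, the growth factor gene Areg had 1 UMI with 34.7 expected, but 29.7% of its multiparous β cell UMIs came from 1 cell, and Cxcl10 had 29 with 121 expected, with 28.1% from 1 cell. Without its single highest cell Gm27168 stood at 1.02 (0.90 to 1.15), and those of Fmo1 and C3 were not among the cells compared. Leaving out cells with 3 or more markers of another type, Fmo1 stood at 1.08 and Gm27168 at 1.05.

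The 6 genes did not have the same companions, as the heat map of holders shows. Gm27168 was above its expected count in cells with Lrrc55 (181 with 101 expected, log2 0.84, 0.62 to 1.05), Cldn8 (230 with 119 expected, 0.95, 0.75 to 1.13) and Matn2 (986 with 512 expected, 0.94, 0.85 to 1.04). In cells with Rerg it stood at 0.05 (-0.24 to 0.33), with Esr1 at 0.03 (-0.31 to 0.35) and with Tnfrsf11b at -0.04 (-0.22 to 0.15). Without its single highest cell Gm27168 was at -0.26 (-0.60 to 0.05) with Rerg. In UMIs Fmo1 stood at 0.49, 0.57 and 0.85 for Lrrc55, Cldn8 and Matn2 and at -0.05, 0.16 and -0.02 for Rerg, Esr1 and Tnfrsf11b. Counted by cells rather than UMIs, Gm27168 was in 46 Lrrc55 cells with 31.3 expected (ratio 1.47, 1.08 to 1.96) and in 63 Cldn8 cells with 40.9 expected (1.54, 1.18 to 1.97). By cells Fmo1 had ratios of 1.08, 1.15 and 1.11 for Lrrc55, Cldn8 and Matn2, and of 1.09, 1.06 and 0.971 for Rerg, Esr1 and Tnfrsf11b. Among these only the interval for Matn2 (1.02 to 1.21) excluded 1. Fmo1 was seen in 890 of the multiparous β cells, which limits how far a ratio by cells can rise. Of 48 such pairs with other genes, 4 had an interval above 1 and 0 below.

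Peptide hormone genes also differed among the holders, and these were picked after their values were seen. Pyy, which encodes peptide YY, was at 1501 UMIs with 718 expected in cells with Tnfrsf11b (log2 1.06, 0.99 to 1.14) and at 0.62 in cells with Matn2. A single cell holding both held 489 of its UMIs (9.90%), and without it the values were 0.50 (0.41 to 0.59) and 0.37 (0.32 to 0.43). It was below its expected count in cells with Lrrc55 (-0.79), Rerg (-0.77), Cldn8 (-0.89) and Esr1 (-0.63). The prodynorphin gene Pdyn went with Tnfrsf11b (0.81, 0.67 to 0.94) and Matn2 (0.63, 0.55 to 0.72) as well. Npy, the neuropeptide Y gene, was at 159 UMIs with 73.5 expected in cells with Lrrc55 (1.11, 0.88 to 1.34), of which 47 were in 1 cell, and without that cell at 0.62 (0.34 to 0.89), while in cells with Cldn8 it had 46 with 92.3 expected (log2 interval -1.45 to -0.59), of which 37 were in 1 cell. Sst in cells with Tnfrsf11b was at 0.08 (-0.05 to 0.19), but the β cell gate of under 1% Sst limits this value, so it says little of δ cell RNA. The antigen presentation genes H2-Aa, H2-Eb1 and Cd74 had 126, 101 and 250 UMIs in Tnfrsf11b cells with 31.4, 32.4 and 88.2 expected. A single Tnfrsf11b cell held 111, 93 and 229 of them, and without it they had 15, 8 and 21 UMIs with 31.1, 32.0 and 87.1 expected. Between the libraries Pyy stood at 243 and 109 CPM in β cells, the opposite direction to Tnfrsf11b.

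**Figure D5:**
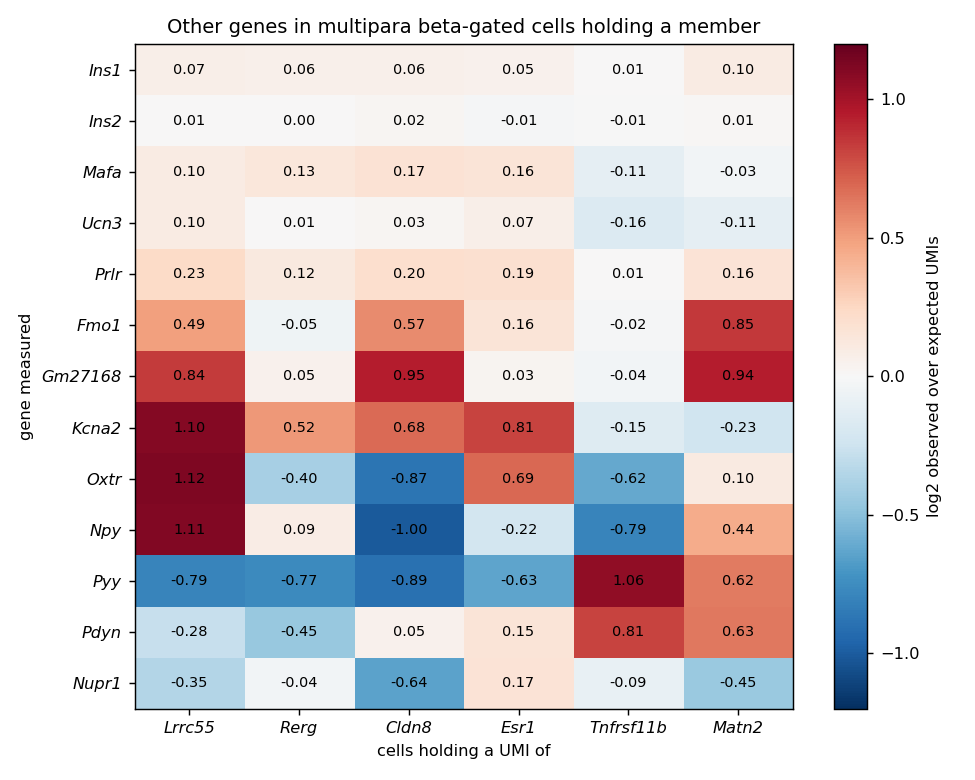
Level of 13 other genes in multiparous β cells holding each of the 6 genes, as log2 of observed over expected UMIs at matched depth (color and printed value). Ins1 and Ins2 stay between -0.01 and 0.10, Gm27168 is highest with Cldn8, Matn2 and Lrrc55, and Pyy is positive only with Tnfrsf11b and Matn2. Kcna2 and Oxtr rest on under 20 expected UMIs with Lrrc55, Rerg, Cldn8 and Esr1.

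Across the 1463 multiparous β cells, the Pearson correlation of log-normalized levels was weak for every gene compared, 12152 in all, and is a description of sparse counts. Lrrc55 went most with the potassium channel gene Kcna2 (r = 0.24), and Oxtr was also among its 5 highest (0.21). Matn2 went most with Fmo1 (0.24), Gm27168 (0.20), Prlr (0.19), Efnb3 (0.19) and Ins1 (0.19). Gm27168 was among the 5 highest of Cldn8 (0.17). The highest partners of Rerg (Plat, 0.30), Esr1 (Rgs5, 0.30) and Tnfrsf11b (Gm15690, 0.34) were each seen in 1.09% to 1.37% of the cells, so these values rest on few cells. Among the 6 themselves r ran from -0.05 for Esr1 and Tnfrsf11b to 0.10 for Rerg and Matn2.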

How the data were processed

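Single-cell RNA was measured with the 10x 3′ chemistry in islets of virgin and multiparous mice, 1 library each. The authors deposited 1 matrix of UMI counts for each library, with genes as rows and barcodes as columns and no normalization. The submitters' processing notes name Cell Ranger 3.1.0, Seurat 3.0 and the builds GRCm38 and mm10. Counts were used as deposited, from 94853806 virgin UMIs in 5463 barcodes and 82503776 multiparous UMIs in 5075.

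The study's filter was applied (over 200 and under 6000 genes, under 60000 UMIs, under 10% mitochondrial UMIs), and doublets called with Scrublet in Scanpy 1.11.5 were removed (60 virgin and 46 multiparous), leaving 4331 and 3328 cells. At least 10% mitochondrial UMIs were found in 17.8% of virgin and 30.5% of multiparous barcodes. Cells were gated on hormone shares, with limits set after the distributions of these shares were seen: β cells as given above, α and PP cells at 10% Gcg or Ppy, δ cells at 5% Sst, each with the other hormones low (under 5% insulin, 2% Gcg, 1% Sst, 5% Ppy). Other cells needed at least 3 detected markers of 1 list. Levels are summed UMIs scaled to 1000000 (CPM), with exact Poisson, Clopper-Pearson or conditional binomial 95% intervals (SciPy 1.17.1), which cover counting error only. A count of 0 was set to a floor of 3 counts per group, while the interval of a ratio used the count of 0. With 1 library per group no test was made and no p-value is given. The scripts were tested on simulated data.

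The genes and lists were chosen with earlier results of these data known. Genes were named as members, list genes, markers, the 5 highest correlates of each member, and the 10 highest and lowest ratios in cells with 2 or more members; others are said to be chosen after their values were seen. Alternatives were the filter, doublets, gates, thinning, scaling (TMM, edgeR 4.0.16), cell weighting, hormones left out, and minimum UMIs.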

Additional observations from a re-analysis of the deposited data

Results flagged for a closer look

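The barcodes that the cell filter removed, 1072 virgin and 1701 multiparous with 9679474 and 12337205 UMIs, enter none of the comparisons above, and all 6 genes were counted at a higher level in the multiparous ones. For 5 of them the lower limit of the ratio lay above a log2 of 0, which is why they are given here. Lrrc55 had 0 UMIs in the virgin and 29 in the multiparous barcodes removed, in 21 barcodes (2.35 CPM). Its log2 ratio was 2.92 with the virgin count set to a floor of 3 counts over the group. The exact lower limit, from the counts of 0 and 29, was 2.53. Matn2, with 87 and 312 UMIs (8.99 and 25.3 CPM), gave a log2 ratio of 1.49 (1.15 to 1.85), close to its β cell ratio. For Esr1 the log2 ratio was 2.90 (0.85 to 6.04), from 2 and 19 UMIs. Rerg had 0 and 11 UMIs, and its log2 ratio was 1.52 by the same floor, with an exact lower limit of 0.98 from these counts. Cldn8 had 5 and 18 UMIs, and the 5 virgin UMIs came from 1 barcode, with a log2 ratio of 1.5 (0.02 to 3.28). Tnfrsf11b, at 27 and 50 UMIs, had an interval that includes 0 (log2 0.54, -0.16 to 1.27). More multiparous than virgin barcodes were removed, and the part of cell state in these counts was not tested.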

How the results depend on the processing

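No paired analysis was possible because each group is 1 library. Each of the 54 alternative log2 ratios of the 6 genes stayed above 0. Thinning β cells to 1 depth gave 3.1 for Lrrc55, 2.45 for Esr1 and 0.96, under 2-fold, for Tnfrsf11b, for the first 2 against fewer UMIs and a floor of 3 counts. It gave shares of multiparous β cells of 1.44% for Lrrc55, 1.06% for Rerg, 2.12% for Cldn8, 1.06% for Esr1, 4.39% for Tnfrsf11b and 19.6% for Matn2, and 2.35% for cells with 2 or more of the genes, as fewer UMIs per cell must. At full depth that last share was 21.5%, and 6.22% when Matn2 was not counted. With no cell filter Matn2 was in 48.3% of cells. The count of genes over 2-fold higher was 271, and 91 with at least 50 UMIs or 1505 with at least 1 UMI. List medians near 0 in cells with 2 or more of the genes changed sign for gestation (-0.033 with no depth matching, -0.0028 with doublets kept), identity (-0.038) and stress (-0.040, both with no depth matching), and the estrogen list moved to -0.21 with no depth matching; the cause was not tested. Leaving out cells with 3 or more markers of another type, chosen after seeing the data, changed the direction of 0 of 25 values and moved 0 beyond the counting interval (1.5 times for counts, 0.1 for list medians). Leaving out the 1 cell with the most UMIs of a gene, also chosen after seeing the data, turned Pyy in cells with 2 or more of the genes from 0.71 to -0.036, Gm27168 in Rerg cells to -0.26 and Fmo1 in Tnfrsf11b cells to 0.0014. Leaving out the 1 holder with the most UMIs, which lowers a gene's observed count by construction, also turned Gm27168 in Esr1 cells to -0.24, Npy in Rerg cells to -1.09, and Pdyn to -0.23 in Cldn8 and -0.13 in Esr1 cells. TMM scaling moved the median log2 ratio of all genes from -0.09 to -0.005. Depth limits the 4 sparse genes: a β cell without a UMI may still hold their RNA.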
